A study of Mus musculus with 2 samples.

Results

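The 7 metabotropic glutamate receptor genes Grm2, Grm3, Grm4, Grm5, Grm6, Grm7 and Grm8 were taken by symbol from the 55536 mouse genes of the deposited gene tables. The samples were 2 total RNA-seq libraries of tissue labelled as a layer of the hippocampus, numbered as biological replicates 1 and 2, from adult female mice of the strain 5xFAD/CAST, described as a cross of 5xFAD with Cast, at an age of 8 to 10 months. 5xFAD mice carry human transgenes with familial Alzheimer mutations under the neuronal Thy1 promoter, and Cast is a wild-derived strain. Both replicates have this genotype and neither is described as treated, so the values describe 1 group and no control was analysed here. Each replicate has a biosample record of its own but they share a donor record, which leaves separate animals unsettled, and each SD measures only the spread between these 2 samples, which may be technical.

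Metabotropic glutamate receptors are class C G protein-coupled receptors that bind glutamate in a large extracellular domain and signal through G proteins rather than by opening a channel. Group I, here Grm5, couples to Gq and phospholipase C and sits mainly on the postsynaptic side. Group II (Grm2 and Grm3) and group III (Grm4, Grm6, Grm7 and Grm8) couple to Gi/o, lower cyclic AMP and mostly restrain transmitter release from presynaptic terminals. In the hippocampus the family tunes synaptic plasticity, and Grm5 is also known as a partner through which amyloid-beta oligomers act on synapses.

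The gene tables held 27816845 and 32316737 expected counts in replicates 1 and 2, of which 27682992 and 32169915 fell on mouse genes. Dentate granule cell markers were all detected (5 of 5, summed level 115 and 125 TPM, a share of all transcripts that is corrected for transcript length), as were pan-neuronal markers (5 of 5, 1864 and 2029 TPM). Markers of neighbouring tissue stood apart between the libraries. Summed choroid plexus markers were at 446 TPM in replicate 1 and 155 in replicate 2 (4 of 5 detected), and summed thalamus markers at 85.2 and 48.8 TPM (5 of 5 detected). The sum of oligodendrocyte markers was 1828 and 1483 TPM, of astrocyte markers 1736 and 1678, of microglia markers 405 and 383, and of GABAergic neuron markers 349 and 374, each with 5 of 5 detected. No retina marker of 5 was detected. In bulk tissue, fewer cells of a type and less RNA per cell cannot be told apart.

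The 4 group III genes were compared in sequence, since reads from near-identical stretches could be shared between them. A 936-base coding exon is whole in Grm4, Grm7 and Grm8, and the same bases are split into exons of 624 and 312 bases in Grm6. Across the 4 genes 489 of the 936 positions (52.2%) carried the same base. The 60-base window with the most identical positions, 44, is shown here from the transcript sequences of GENCODE M21 (build mm10), 5′ to 3′, with capitals at the positions that are not the same in all 4. The windows lie at chr17:27434572-27434631 (minus strand) for Grm4, chr11:50863190-50863249 (plus) for Grm6, chr6:111358982-111359041 (plus) for Grm7 and chr6:27363124-27363183 (minus) for Grm8.
Grm4: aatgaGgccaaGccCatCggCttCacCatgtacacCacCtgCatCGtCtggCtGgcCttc
Grm6: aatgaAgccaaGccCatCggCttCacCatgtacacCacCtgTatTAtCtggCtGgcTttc
Grm7: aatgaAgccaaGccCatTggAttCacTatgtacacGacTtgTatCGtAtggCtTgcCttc
Grm8: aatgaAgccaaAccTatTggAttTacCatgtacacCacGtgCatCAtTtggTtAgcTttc
The longest run identical in all 4 genes within the 936 bases was 8 bases. Between pairs of genes the identity over the 936 bases was 66.1% to 72.6%, and the longest identical run was 14 bases (Grm7 and Grm8) to 35 bases (Grm4 and Grm6, within the window shown). The deposited posterior SD of the gene count, which measures how uncertain the assignment of reads was, was 0 for all 7 genes in both libraries.

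Over the aligned bases of the coding sequences, with gaps left out, pairs within a receptor group were 68.2% to 73.0% identical (7 pairs). Pairs from different groups were 60.8% to 65.1% identical (14 pairs). The pairs with Grm5 rested on 2503 to 2601 aligned bases. The exon plan also followed the groups. Grm2 and Grm3 have 5 coding exons each, and Grm4, Grm6, Grm7 and Grm8 have 10 each, while the Grm5 form shown has 8. Grm5 has the longest coding sequence, 3516 bases with the stop codon, against 2616 to 2748 in the other 6.

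**Figure D1:**
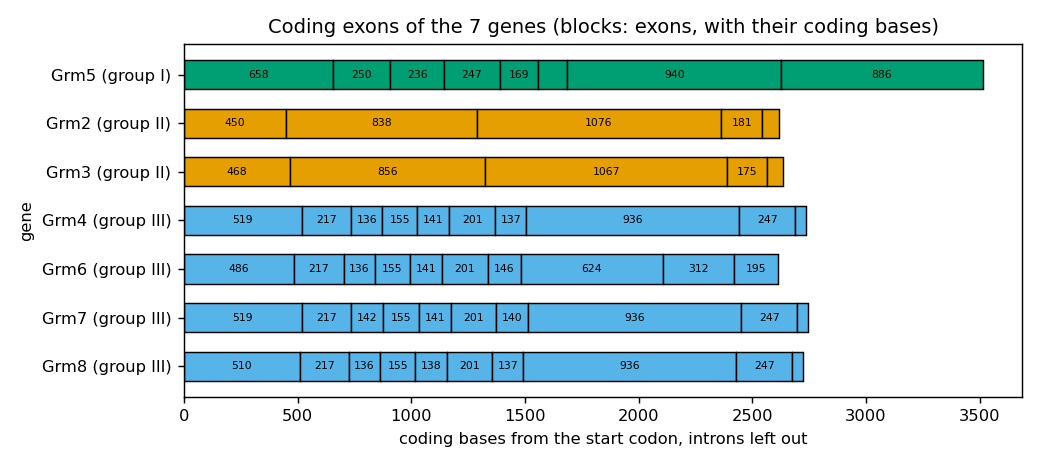
Coding exons of 1 full-length transcript of each gene, drawn to scale as blocks along the coding sequence in bases, with introns left out and colours for receptor groups I, II and III. The 936-base exon is shared in length by Grm4, Grm7 and Grm8 and appears as 624 and 312 bases in Grm6, and Grm5 ends in a coding exon of 886 bases.

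Of the 7 genes 6 were detected, that is, both libraries reached 1 TPM, against 60.2% of the 22015 nuclear protein-coding genes. The median over the 7 was 26.3 TPM, beside 4.24 TPM over all nuclear protein-coding genes and 15.3 TPM over the detected ones. Summed over the 7 genes, the level was 182 TPM in replicate 1 and 197 in replicate 2 (190 ± 10.1, SD, n = 2). Group I, through Grm5 alone, made up 49.9% ± 1.03 of that sum, group II 28.0% ± 0.882 and group III 22.1% ± 1.91 (SD, n = 2). In the separate table of estimated counts group II held 23.3% in replicate 1 and 25.0% in replicate 2. Group III held 24.3% and 20.5% there, so the order of these groups in replicate 1 depends on the table.

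Grm5, the Gq-coupled receptor of dendritic spines that Homer proteins tether beside the synaptic density, was the highest of the 7. It lies at chr7:87584168-88134907 on the plus strand, a span of 551 kb with 7 annotated transcripts. Its level was 89.8 TPM in replicate 1 and 99.7 TPM in replicate 2 (94.8 ± 7.02, SD, n = 2), on 8858 and 11248 counts. The 95% exact Poisson intervals, which cover counting error only, were 87.9 to 91.7 and 97.9 to 102 TPM and did not overlap. By mean TPM it ranked 880 of the 22015 nuclear protein-coding genes, with 96.0% of them below it.

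Grm2 and Grm3, the group II autoreceptors, were close to each other in level. Grm2, known on the presynaptic axon away from the release site, lies at chr9:106643095-106656082 on the minus strand and spans 13.0 kb. It was at 24.4 TPM in replicate 1 and 29.3 in replicate 2 (26.8 ± 3.48, SD, n = 2), on 1615 and 2187 counts. Grm3, known in astrocytes as well as neurons, lies at chr5:9485541-9725170 on the minus strand, spans 240 kb and has 1 annotated transcript. Grm3 was at 25.6 and 27.0 TPM (26.3 ± 1.03, SD, n = 2), on 1480 and 1785 counts. The Grm3 values lay within the range of the Grm2 values. Replicate 2 was the higher library for both genes.

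Grm7, the receptor of the presynaptic active zone with low affinity for glutamate, was the highest of group III. It lies at chr6:110645581-111567230 on the plus strand, the longest span of the 7 at 922 kb. It was at 30.2 and 29.0 TPM (29.6 ± 0.841, SD, n = 2), on 1874 and 2209 counts. Grm4, a presynaptic receptor best known from cerebellar granule cell terminals, lies at chr17:27422387-27521403 on the minus strand. Grm4 was at 7.32 TPM in replicate 1 and 5.68 in replicate 2 (6.50 ± 1.16, SD, n = 2), on 552 and 443 counts, and their 95% exact Poisson intervals (6.72 to 7.96 and 5.16 to 6.23 TPM) did not overlap. Grm8, known on lateral perforant path terminals, lies at chr6:27275119-28135178 on the minus strand, 860 kb. Grm8 was at 5.29 and 6.16 TPM (5.73 ± 0.615, SD, n = 2), on 313 and 331 counts, with overlapping intervals (4.72 to 5.91 and 5.51 to 6.86 TPM).

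Grm6, the receptor with which retinal ON bipolar cells sense photoreceptor glutamate, lies at chr11:50850685-50866208 on the plus strand. It had 0 counts in both gene tables. The upper limit that a count of 0 leaves is 3 counts, which is 0.108 CPM (counts relative to all mouse counts of the library) in replicate 1 and 0.0933 CPM in replicate 2, so a lower level was not detectable at this depth. The separate table of estimated counts gave 2 counts in each library, below that limit, all on Grm6-202, a transcript annotated without a coding sequence.

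The order by mean TPM was Grm5, Grm7, Grm2, Grm3, Grm4, Grm8 and Grm6. Grm5 was 3.21 times Grm7, the next gene, and Grm3 was 4.04 times Grm4, and in both pairs the 2 libraries of the higher gene lay above those of the lower. The neighbours Grm7 and Grm2, Grm2 and Grm3, and Grm4 and Grm8 overlapped in range, so their order is not settled. Grm7 and Grm3, which are not neighbours, did not overlap, with Grm7 the higher. From transcripts with a complete coding sequence alone, their order was the reverse. Grm7 was then at 23.27 and 24.05 TPM and Grm3 at 25.55 and 27.01 TPM, so this order depends on the transcripts counted. Replicate 2 alone put Grm2 above Grm7 and Grm8 above Grm4, and replicate 1 alone put Grm3 above Grm2.

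**Figure D2:**
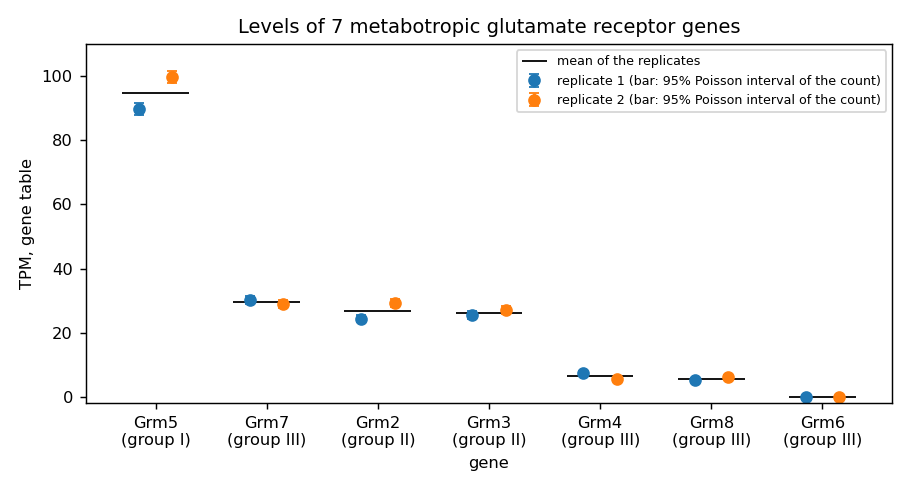
Level of each gene in TPM (vertical axis) in replicate 1 and replicate 2, with 95% exact Poisson intervals of the count as bars and the mean of the replicates as a line. Grm5 stands at 89.8 and 99.7, Grm7, Grm2 and Grm3 lie between 24.4 and 30.2, Grm4 and Grm8 between 5.29 and 7.32, and Grm6 is at 0.

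The same libraries were then compared as a ratio of replicate 2 over replicate 1, from counts scaled with TMM, which equalises the bulk of genes between libraries. With 1 library on each side this compares libraries and has no replicate check. Of the 7 genes 6 passed the filter of a mean count of at least 10. None of the 6 was past 2-fold, where 2.68% of all 18906 genes tested were, and none was past 1.5-fold, where 8.63% were. All 6 had a mean count above 100, and of the genes whose mean count reached 100 only 1.13% were past 1.5-fold. Of the 6, 4 were higher in replicate 2 and 2 lower. Their median size of log2 ratio, in either direction, was 0.13, beside 0.12 over all genes tested and 0.09 over the 13095 genes whose mean count reached 100.

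Grm4 differed most between the libraries, with a log2 ratio of -0.52 (95% counting interval -0.71 to -0.34). Grm2 and Grm5 were higher in replicate 2, at log2 ratios of 0.23 (0.14 to 0.33) and 0.14 (0.10 to 0.18). For Grm3 (0.07), Grm7 (0.03) and Grm8 (-0.12) the counting interval included 0. Grm7 and Grm8 went opposite ways in TPM and in scaled counts: Grm8 was higher in replicate 2 as TPM of the gene table and lower as scaled counts. In the separate table of estimated counts the Grm8 TPM was lower in replicate 2, at 6.23 and 5.40, so the direction of its TPM depends on the table.

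**Figure D3:**
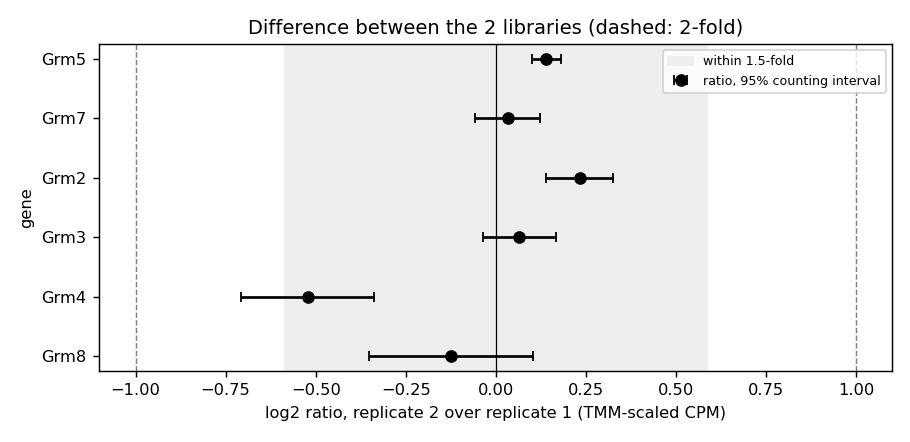
Log2 ratio of replicate 2 over replicate 1 in TMM-scaled CPM for the 6 genes that passed the count filter, with 95% counting intervals as bars, the range within 1.5-fold shaded and 2-fold dashed. Grm4 at -0.52 lies farthest from 0, and every point is within the shaded range.

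The lower Grm4 value in replicate 2 stood beside lower thalamus markers, whose median log2 ratio was -0.61 with 2 of 5 past 2-fold. Choroid plexus markers were lower at -1.56 with 3 of 5 past 2-fold, where 2.68% of all genes tested were. Oligodendrocyte, microglia, astrocyte and cerebellar granule cell markers were lower too, at medians of -0.31, -0.15, -0.10 and -0.08. Pan-neuronal, dentate granule and GABAergic markers were higher, at 0.12, 0.11 and 0.03. In TPM 4 of the 5 thalamus markers were lower in replicate 2. These were Prkcd, a protein kinase C, at 34.9 and 14.99 TPM, Tcf7l2, a transcription factor, at 9.45 and 4.18 TPM, Slc17a6, a vesicular glutamate transporter, at 14.9 and 9.41 TPM, and Rora, a nuclear receptor, at 22.1 and 15.4 TPM. Lef1, a transcription factor, was higher in TPM, at 3.74 and 4.75, with a log2 ratio of -0.24 in scaled counts. The part of these tissues and cell types in the Grm4 value was not tested. Of the cerebellar granule cell markers 3 of 5 were detected (sum 28.0 and 22.8 TPM), and the defining markers Gabra6 (0.04 and 0.06 TPM) and Cbln3 (0.04 and 0.16 TPM) were near 0. Neurod1 and Zic genes, which other neurons also express, carried that sum. Zic1 was at 10.27 TPM in replicate 1 and 4.84 in replicate 2, Zic2 at 9.23 and 8.51, and Neurod1 at 8.44 and 9.18.

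Several of the genes are spliced in the part that encodes the intracellular tail, to which scaffold proteins bind. The sequences that set these forms apart are shown from GENCODE M21 transcripts, 5′ to 3′. For Grm5 the b form (Grm5-204) holds a 96-base cassette exon at chr7:88116193-88116288, plus strand, which the a form lacks. For Grm7 the b form (Grm7-201) holds a 92-base exon at chr6:111501510-111501601, plus strand, of which the 71 coding bases, ending in a stop codon, are shown. For Grm8 some forms (Grm8-202 and Grm8-203) extend an exon by 55 bases, 50 of them coding, at chr6:27285680-27285734, minus strand. The Grm8 stretch starts 40 bases before the extension, whose coding bases are in capitals.
Grm5 cassette exon: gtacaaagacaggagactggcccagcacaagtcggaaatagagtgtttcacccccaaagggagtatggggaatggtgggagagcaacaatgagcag
Grm7 alternative exon, coding part: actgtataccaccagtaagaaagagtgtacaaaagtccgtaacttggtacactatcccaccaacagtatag
Grm8 exon extension, coding part: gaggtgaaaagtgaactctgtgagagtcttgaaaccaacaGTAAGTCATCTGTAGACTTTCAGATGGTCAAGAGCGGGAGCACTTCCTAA
The Grm5 exon is a multiple of 3 in length and keeps the reading frame. The Grm7 and Grm8 bases are not, and in both genes they replace the last residues of the tail with others.

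In the transcript table with the RSEM layout, the Grm5 a form (Grm5-202) was at 37.6 and 42.6 TPM and the b form at 30.6 and 32.5 TPM. The b form made up 44.9% and 43.2% of their summed TPM (44.1% ± 1.20, SD, n = 2). As a share of counts it made up 30.4% ± 1.03, since the annotated a transcript is longer, 8047 bases against 4500. Grm5-205, a 551-base transcript without a coding sequence, was listed at 14.4 and 17.7 TPM on only 127 and 179 counts. Transcripts with a complete coding sequence held 75.6% ± 0.478 of the Grm5 TPM and 96.0% ± 0.114 of its counts (SD, n = 2).

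The b form of Grm7 was at 10.6 and 10.3 TPM and the a form (Grm7-202) at 12.6 and 13.8 TPM. The b form thus made up 45.7% and 42.7% of the pair (44.2% ± 2.17, SD, n = 2), or 36.9% ± 2.05 of the counts. The deposited posterior SD of the b form was 57.7 on 633 counts and 63.7 on 696 counts. By TPM both tail forms were listed at similar levels in both libraries, while by counts the b form was the lower. The annotated b transcript is shorter, 3127 bases against 4197, and reads over the junctions were not analysed here.

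The Grm8 forms with the extended exon made up 70.1% of the complete forms in replicate 1 and 52.1% in replicate 2 (61.1% ± 12.7, SD, n = 2). Grm8-204, a transcript with an incomplete coding sequence, was at 0.94 and 2.17 TPM on 21.1 and 55.4 counts. Complete forms summed to 3.74 TPM in replicate 1 and 3.30 in replicate 2, so in this table the higher Grm8 TPM of replicate 2 lay in the other transcripts.

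Grm2 has a form that lacks much of a middle exon. The short form, Grm2-203, lacks 834 coding bases at chr9:106647271-106648104, minus strand, inside the 1076-base coding exon of Grm2-201, and 834 is a multiple of 3. The edges of the missing segment are shown with 20 bases on each side and the segment in capitals.
Grm2 5′ edge: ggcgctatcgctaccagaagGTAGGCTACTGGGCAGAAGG
Grm2 3′ edge: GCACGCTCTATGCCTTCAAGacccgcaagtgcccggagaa
The segment begins with GT and ends with AG, the letters found at the ends of most introns. Grm2-201 was at 13.3 and 15.4 TPM and the short form at 10.2 and 13.1 TPM. The short form made up 43.4% and 46.0% of their TPM (44.7% ± 1.80, SD, n = 2) and 26.1% ± 1.41 of their counts. The annotated transcripts also differ in length outside the segment, at 4711 and 2111 bases, and reads over the segment's junction were not analysed here.

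Grm4-201 was the main complete form of Grm4, at 4.69 and 3.94 TPM, and held 69.1% and 92.5% of the complete forms (80.8% ± 16.6, SD, n = 2). Grm4-207, with a shorter coding sequence, was at 1.83 TPM in replicate 1 and 0.32 in replicate 2. Its posterior SD, 31.4 on 115 counts and 20.2 on 22.7 counts, shows how loosely reads were assigned to it. Grm4-203, without a coding sequence, was at 0.30 and 1.42 TPM on 4.14 and 22.7 counts.

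The table of estimated counts, made by a separate route in the layout of kallisto, gave the short Grm2 form 49.8% ± 1.41, the Grm5 b form 48.5% ± 1.14, the Grm7 b form 51.1% ± 3.37 and the extended Grm8 forms 52.3% ± 3.78 of TPM (SD, n = 2). For Grm8 its libraries went the other way, with 49.6% in replicate 1 and 55.0% in replicate 2. Grm4-201 held 63.3% and 63.8% of the complete Grm4 forms there. The other 4 complete Grm4 forms summed to 2.17 and 1.43 TPM in that table, against 2.10 and 0.32 TPM in the RSEM-layout table. It listed Grm5-205 at 27.3 and 28.2 TPM, above both values of the RSEM-layout table.

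**Figure D4:**
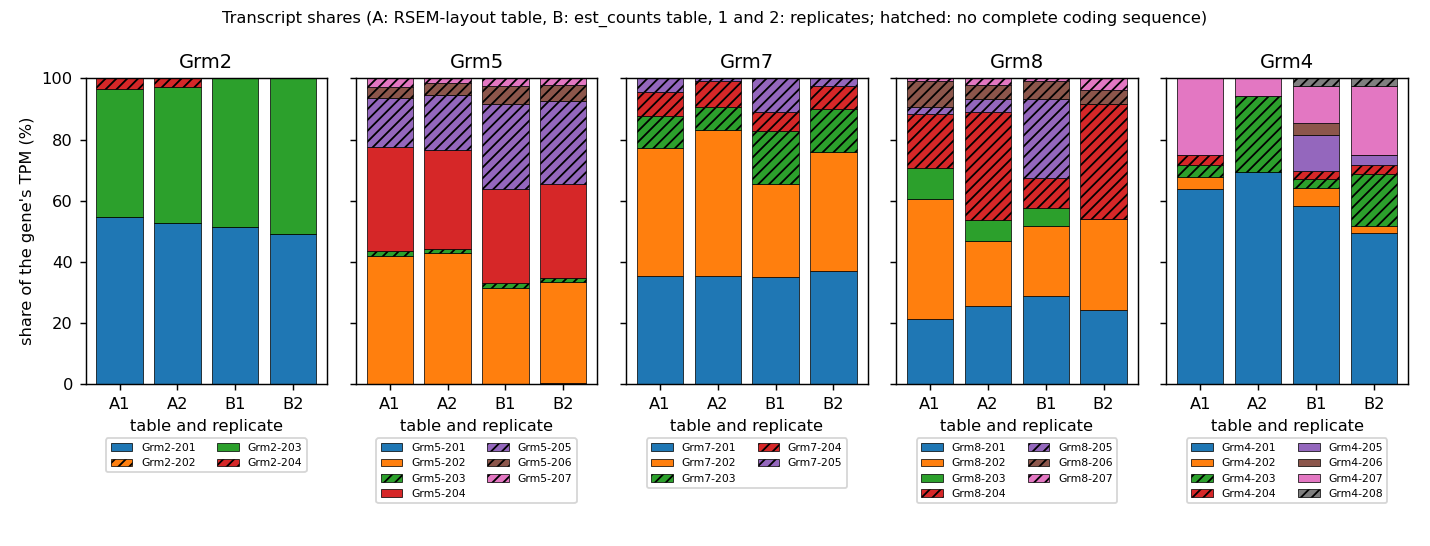
Share of each annotated transcript in its gene's TPM (vertical axis, percent) for Grm2, Grm5, Grm7, Grm8 and Grm4, in the RSEM-layout table (A) and the table of estimated counts (B), for replicates 1 and 2, with transcripts lacking a complete coding sequence hatched. Grm2, Grm5 and Grm7 show 2 main complete forms in every bar, while the Grm8 and Grm4 bars differ between libraries and tables.

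The partners of these receptors were described by lists of genes, by counts and medians. For comparison, 60.2% of all nuclear protein-coding genes were detected, and 2.68% of all genes tested were past 2-fold between libraries. Adaptors and scaffolds were detected in 8 of 8 cases, with a median of 34.6 ± 3.97 TPM. Ncdn (neurochondrin), a neuronal protein that binds Grm5, was at 655 and 730 TPM (692 ± 53.2), and Cyth2, an exchange factor for ARF proteins, at 61.0 ± 2.02 TPM (SD, n = 2). The Homer scaffolds, which bind the Grm5 tail, were all detected, with Homer1 at 51.4 ± 1.60, Homer2 at 37.5 ± 2.47 and Homer3 at 31.6 ± 5.47 TPM (SD, n = 2). None of the 8 was past 2-fold between libraries.

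Of the Gq cascade that Grm5 drives, 14 of 14 genes were detected, with a median of 49.1 ± 4.53 TPM. Prkcb, a protein kinase C, was at 274 ± 16.5 TPM, and Dgkz, which phosphorylates diacylglycerol, at 197 ± 8.94 TPM (SD, n = 2). The only gene of the list past 2-fold between libraries was Plcb4, a phospholipase C beta, at 19.99 TPM in replicate 1 and 7.99 in replicate 2, on 1070 and 597 counts, a log2 ratio of -1.04. The ratio was under 2-fold with spike-in scaling (-0.97) and in the table of estimated counts (-0.96). Plcb4 was lower in the same library as the thalamus markers and Grm4, and the part of thalamic tissue in it was not tested. Plcb1, another isoform of the enzyme, was at 49.8 and 58.0 TPM.

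Of the Gi/o cascade of groups II and III, 10 of 10 genes were detected, with a median of 43.6 ± 2.14 TPM and none past 2-fold. Gnao1, the G protein alpha subunit of the Go class, was at 270 ± 12.1 TPM and Adcy1, an adenylyl cyclase, at 127 ± 0.658 TPM (SD, n = 2). The 9 desensitisation genes were all detected (median 39.5 ± 4.68 TPM), with Grk2, a receptor kinase, at 78.2 ± 4.07 and Arrb1, an arrestin, at 63.2 ± 1.82 TPM (SD, n = 2). Both trans-synaptic partners were detected, postsynaptic adhesion proteins that bind group III receptors across the cleft: Elfn2 at 72.9 ± 7.36 TPM and Elfn1 at 13.3 ± 0.481 TPM (SD, n = 2).

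The cascade that Grm6 uses in the retina was detected in 4 of 8 genes, with a median of 1.06 ± 0.322 TPM. Gng13 (45.5 ± 7.09 TPM) and Rgs7 (31.7 ± 1.68 TPM, SD, n = 2), a G protein gamma subunit and a regulator of G protein signalling that brain neurons also use, led it. Of the 7 genes that passed the count filter 1 was past 2-fold, at fewer than 100 counts. Among other class C receptors 3 of 5 were detected, near the 60.2% over all nuclear protein-coding genes. None of the 4 that passed the count filter was past 2-fold. The GABA-B subunits Gabbr1 and Gabbr2 were at 265 ± 4.93 and 76.2 ± 0.841 TPM (SD, n = 2).

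**Figure D5:**
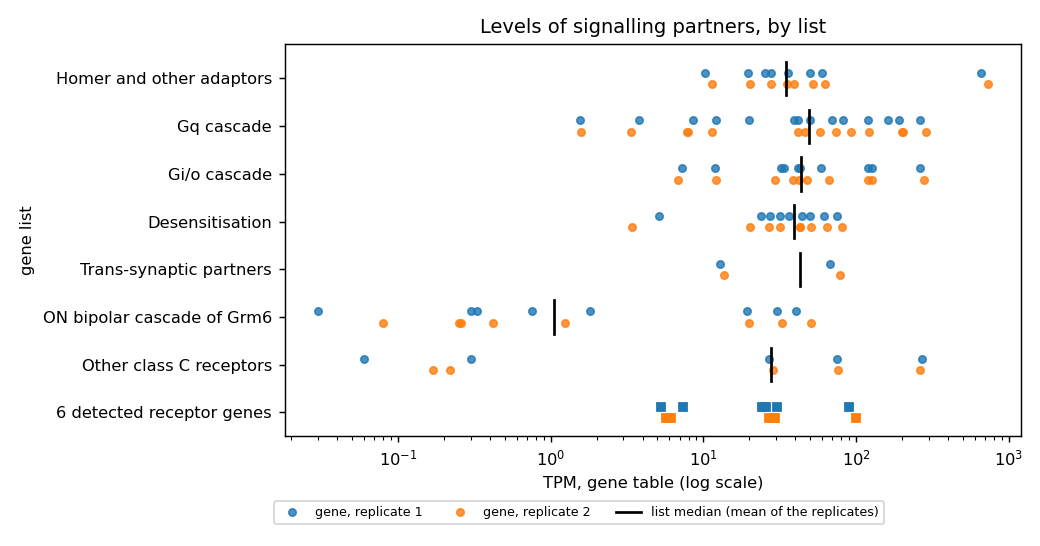
Level in TPM (log scale) of each gene of the partner lists in replicates 1 and 2, with the list median as a line, above the 6 detected receptor genes as squares. The lists of adaptors, Gq, Gi/o, desensitisation and trans-synaptic genes have medians from 34.6 to 49.1 TPM, and the Grm6 cascade has a median of 1.06 TPM.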

How the data were processed

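The authors deposited, per the file headers and a readme, tables in the RSEM layout for each library that hold expected counts, TPM and the posterior SD of each count for genes and for transcripts. Per the file headers, a further table in the kallisto layout holds estimated counts and TPM for transcripts. All use mm10 and GENCODE M21. The sources used here name no program, version or strand setting of the counting, though the labels name a directional kit, 300 ng of RNA and ERCC spike-ins. All 55536 mouse genes matched the annotation. Together the 96 spike-in and 26249 other rows held 0.481% of counts in replicate 1 and 0.454% in replicate 2, and stayed out of library sizes.

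Levels are deposited TPM, with mean and SD over 2 libraries. Ratios used counts rounded to whole numbers, TMM in edgeR 4.0.16 (R 4.3.3), a prior count of 2 and a mean count of at least 10. The script was tested on simulated counts. Ratio intervals are binomial at 95% and cover counting error only, since they hold no term for the spread between samples. Reads carry no molecular identifiers, so duplicate reads could not be told apart. No hypothesis test was run: there is 1 group. Identities are from global alignments (biopython 1.88), in Python 3.11.15. Named genes are the 7 members and their transcripts, the 2 highest genes of each pathway list and any past 2-fold at a mean count of at least 100, and overlapping genes that reached 0.1 TPM in each library; the Homer genes, Plcb1 and single markers were named after their values were seen. Members and lists were chosen with earlier results of these data known. The alternatives were scaling by size factors of DESeq2 1.42.0, by library size or by spike-ins, other prior counts, filters and thresholds, both transcript tables, and each library alone.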

Additional observations from a re-analysis of the deposited data

How the results depend on the processing

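The summed level of the 7 genes, 190 TPM, became 424 TPM when TPM was rescaled to nuclear protein-coding genes, and 157 TPM from transcripts with a complete coding sequence alone, an alternative chosen after seeing the data. Of 21 pairs in the order of levels 20 kept their direction in the table of estimated counts, where Grm8 was above Grm4, and 19 and 20 with either library left out. In the table of estimated counts the shares were 48.5% (Grm5 b form), 51.1% (Grm7 b form), 49.8% (Grm2 short form) and 63.5% (Grm4-201). No member passed 2-fold under any scaling, prior count, filter or table tried, and the Grm4 log2 ratio ranged from -0.53 to -0.45. Spike-in scaling moved the median of all genes to 0.07. The Plcb4 ratio, whose alternatives were also chosen after seeing the data, stayed past 2-fold in 6 of 8. No paired analysis was possible because there is 1 group. Isoform shares rest on the annotated ends of each transcript, and the forms of Grm4 and Grm8, which rest on the fewest counts, are the least certain.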

Other observations

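The annotation places 16 other genes within or across the spans of the 7 receptor genes, and 6 of them reached 0.1 TPM in each library. In Grm5 these were 5 loci of the annotation class TEC, which awaits experimental proof, on its own strand, none sharing bases with a Grm5 exon. Gm44846 was at 2.85 and 2.36 TPM, Gm44847 at 2.53 and 1.79, Gm44927 at 1.57 and 1.23, Gm44926 at 1.00 and 1.01, and Gm44848 at 0.44 and 0.27 TPM in replicates 1 and 2. All 5 lie in Grm5 introns.

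Gm20387, an antisense gene at chr6:110639753-110645916 on the minus strand, overlaps the start of Grm7, and its span covers 336 bases of Grm7 exons. It was at 1.60 TPM in replicate 1 and 0.98 in replicate 2, on 53 and 37 counts, against 30.2 and 29.0 TPM for Grm7. Whether the counting used strand is named in no source used here. The posterior SD of the Grm7 gene count was 0 in both libraries, so the gene tables list no uncertain assignment of Grm7 reads. Whether the 336 bases are also exonic in Gm20387 was not checked.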
